A study of Mus musculus with 4 samples.

Results

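The regions described here are ATAC-seq peaks that lie in the second or a later intron of a gene and outside annotated repeats and CpG islands. They were taken from the peak table as rows whose annotation is an intron other than intron 1 and whose detailed annotation names no repeat and no CpG island, a rule that uses no measured accessibility. The rule gave 15346 of 70436 peaks (21.8%), which are called members below. They were 138 to 2913 bp wide (median 494 bp) and lay at a median of 32.0 kb from the nearest transcription start site (TSS). The median intron number was 5 and the highest was 116.

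ATAC-seq inserts sequencing adapters into open DNA with a transposase, so the tags in a peak count how accessible that stretch of chromatin was. The cells were melb-a, a mouse melanoblast line of wild-type genotype that was grown with SCF and Fgf2. Melanoblasts give rise to pigment cells in the embryo. Each library came from cells that received a lentiviral short hairpin RNA and were selected with puromycin. The Hira arm held 1 library with shHIRA I and 1 with shHIRA II (hairpins I and II), and the control arm held 1 with shLuciferase and 1 with shScramble. All groups therefore share the line, the virus and the drug, and no hairpin was replicated. How far each hairpin lowered Hira was not analysed here, since accessibility does not measure it. All 4 libraries are of a single cell line, so p-values speak for these libraries only. In the main test, given further on, the controls entered as 1 sample, so its spread came from the Hira libraries alone.

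HIRA is a histone chaperone that places the variant H3.3 into nucleosomes without DNA replication, at active genes, promoters and enhancers. Introns after the first are a common site of enhancers, which are opened by the binding of transcription factors that differ between cell types. In the pigment lineage MITF, SOX10 and PAX3 bind many such sites, and a regulatory region in an intron may act on the gene that holds it or on a neighbour.

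The deposited table gives no peak sequence. Of the members, 104 overlapped the 300-base window around an annotated start in RefSeq (GRCm38.p6, the same assembly as mm10), and 15 of these windows belonged to the gene that holds the intron. Among the 104, 8 members were called higher under the Hira hairpins and 4 lower by the test given further on, which called 8.47% of all peaks higher and 5.67% lower. The median log2 fold change of the 104 was 0.13. The sequences of 4 of the called ones are shown, with 2 from members called higher and 2 from members called lower, since they are stretches of opened or closed intronic chromatin whose letters are known. Capitals mark matches to the motifs searched. They lie at chr7:35363078-35363375 (minus strand, intron 3 of Rhpn2), chr10:24552995-24553294 (plus strand, intron 3 of the long non-coding RNA gene Gm15270), chr13:47224257-47224556 (minus strand, intron 3 of Rnf144b) and chr16:77420333-77420632 (minus strand, intron 2 of Mir99ahg). Each is printed 5′ to 3′, and the start that gives the window is named first.
Gm51476: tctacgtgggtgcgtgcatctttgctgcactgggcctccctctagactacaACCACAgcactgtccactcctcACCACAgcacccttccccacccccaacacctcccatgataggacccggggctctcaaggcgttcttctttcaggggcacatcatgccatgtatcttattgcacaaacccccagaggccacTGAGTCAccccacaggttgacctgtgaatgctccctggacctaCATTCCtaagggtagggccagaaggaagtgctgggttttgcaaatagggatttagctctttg
Gm36089: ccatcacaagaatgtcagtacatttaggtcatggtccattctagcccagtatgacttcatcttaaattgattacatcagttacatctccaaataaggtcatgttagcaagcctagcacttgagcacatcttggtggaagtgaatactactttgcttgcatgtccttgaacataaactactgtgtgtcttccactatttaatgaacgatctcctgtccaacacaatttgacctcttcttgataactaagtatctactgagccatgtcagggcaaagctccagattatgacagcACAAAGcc
Gm40934: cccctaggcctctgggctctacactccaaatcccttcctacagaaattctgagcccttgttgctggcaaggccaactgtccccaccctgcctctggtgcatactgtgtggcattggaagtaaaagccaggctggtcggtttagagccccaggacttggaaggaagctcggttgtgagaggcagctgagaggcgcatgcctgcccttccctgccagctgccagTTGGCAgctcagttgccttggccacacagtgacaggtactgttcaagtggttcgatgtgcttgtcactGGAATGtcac
9430053O09Rik: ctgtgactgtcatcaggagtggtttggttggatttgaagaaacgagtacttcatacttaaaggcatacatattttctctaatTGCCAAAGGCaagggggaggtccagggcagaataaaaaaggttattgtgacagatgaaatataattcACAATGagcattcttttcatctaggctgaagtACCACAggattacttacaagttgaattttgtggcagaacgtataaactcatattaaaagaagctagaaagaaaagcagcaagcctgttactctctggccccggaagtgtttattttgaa

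The motifs were TGANTCA (AP-1), CACGTG and CATGTG (E-boxes, the form bound by MITF among others), ACAAAG and ACAATG (SOX factors), GGAATG (TEAD), GCCNNNGGC (TFAP2), TGTGGT (RUNX), TTGGCA (nuclear factor I) and TGACGTCA (CREB and ATF), each read on both strands. The Rhpn2 stretch held TGANTCA and GGAATG and 2 copies of TGTGGT. The Gm15270 stretch held only ACAAAG. The Rnf144b stretch held GGAATG and TTGGCA. The Mir99ahg stretch held ACAATG once and also TGTGGT. Its match to the nuclear factor I motif overlaps one to the TFAP2 motif. Not every called window held a motif. Among those not printed, that of Gm34254 (intron 3 of Pde6b, log2 fold change 2.19) had 0 matches. That of 2900089D17Rik (intron 2 of Bri3, log2 fold change 0.68) had 3. Over the 104 windows TGANTCA was found in 8.65%, against 7.79% of 32544 distinct start windows. GGAATG was found in 27.9% of the 104, against 14.6% of all, and ACAAAG in 29.8%, against 18.7%. CACGTG was found in 4.81% of the 104, against 7.17% of all. TGACGTCA was found in 0.0% of the 104, against 1.80% of all. These are counts of letters in start windows that lie in introns beside start windows of all kinds, which differ in base composition.

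The library totals were 14718721 (hairpin I) and 8910983 (hairpin II) tags in peaks, against 20716859.5 (luciferase) and 15804532 (scramble). Members held 14.2% of the tags in each Hira library and 14.5% in each control. The median member had 78.5 and 43.0 tags under hairpins I and II, against 101 and 77.5 tags in the controls, so precision was lowest under hairpin II. Over members, the tags of the 2 Hira libraries differed by a chi-square of 7.09 per peak, and those of the 2 controls by 0.930 per peak, below the value of about 1 that counting noise gives. Sampling noise was thus larger than the difference between the 2 controls, and they entered as 1 sample. The labels do not say whether they came from separate cultures, so a change against both controls is not one against 2 independent samples. The identity of the cells was checked at the TSS peaks of marker genes. Of 10 melanocyte lineage genes 7 had a peak within 1 kb of the TSS (control 1.67 to 65.6 CPM, tags scaled to the library's tags in peaks), with none at Pmel, Mlana and Ednrb. All 7 Schwann cell markers had one too (control 3.3 to 41.2 CPM). So did 2 of 9 fibroblast, 2 of 6 endothelial, 1 of 7 immune and 0 of 7 keratinocyte markers.

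Later-intron peaks moved in both directions under the Hira hairpins, and more of them moved than of all peaks. Of 15345 members tested, 1541 were called higher (10.0%) and 1175 lower (7.66%), by edgeR's quasi-likelihood test with Benjamini-Hochberg adjustment over all peaks (adjusted p under 0.05). Of all 70432 peaks tested, 8.47% were called higher and 5.67% lower. By a rule that takes each library by itself, in which both Hira libraries lie at least 2-fold beyond both controls, 1409 members were higher (9.18%) and 1046 lower (6.82%), against 7.56% and 5.31% of all peaks. The median log2 fold change of members was -0.03, with the middle 50% from -0.57 to 0.49, against 0.00 for all peaks.

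The number of calls depended strongly on how the spread was estimated. The smallest adjusted p was 0.0248, so many called members share it, and 5522 members had an unadjusted p under 0.05. With edgeR's older estimate of the spread no member was called (smallest adjusted p 0.0704), while 2170 were higher and 1950 lower at an unadjusted p under 0.05. No member was called without the luciferase library either, with 2319 higher and 2429 lower at that unadjusted level. Without the scramble library 783 were called higher and 605 lower. With hairpin I left out, 3443 were called higher and 3619 lower, and with hairpin II left out the counts were 4898 and 5239. In both of these fits the controls stood as 2 samples and the spread came from the control pair alone, with the lone Hira library assumed to vary as they do. Those counts, and the counts of gene lists with a hairpin left out that follow, therefore change 2 settings at once and cannot be set against the others as a test of a hairpin. The rule of a 2-fold gap gave 2356 higher and 2546 lower with hairpin II left out. Of the 111 called members that are named by rule in this text, 0 kept the call without the luciferase library and 80 kept it without the scramble library. Single calls below are to be read beside the CPM of each library.

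The spread of members was close to that of other peaks far from promoters. Of 7546 first-intron peaks outside repeats, 9.85% were called higher and 6.76% lower. Of 13405 intergenic peaks 10 to 100 kb from a TSS, 9.69% were called higher and 5.59% lower. Promoter peaks moved far less, with 1.56% of 7588 called higher and 0.474% lower. The median member was less accessible than a promoter, at 5.25 CPM (mean of the Hira libraries) and 4.88 CPM in control, against 31.3 and 31.7 CPM for promoter peaks. Later-intron peaks that lie in repeats or CpG islands had 9.20% higher and 7.80% lower of 3358. The difference between these classes was not tested, since peaks of a library are not replicates.

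**Figure D1:**
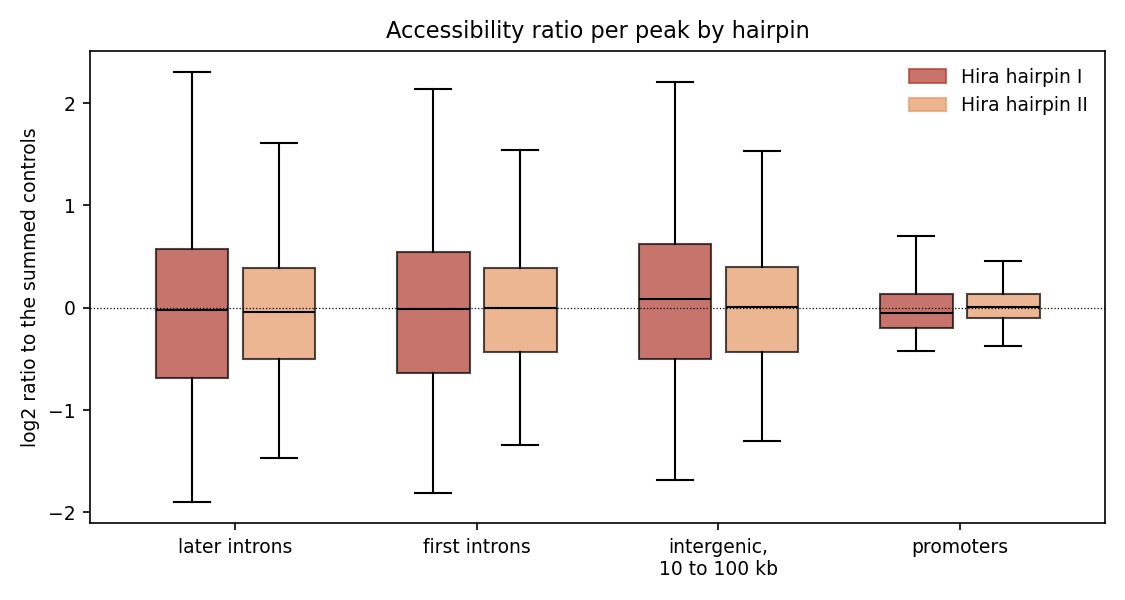
Log2 ratio of each Hira hairpin library to the summed controls (vertical axis, log2) for peaks in later introns, first introns, intergenic DNA 10 to 100 kb from a TSS, and promoters; boxes span the middle 50% of peaks with the median as a line, and whiskers run between the 5th and 95th percentiles. Medians of the later introns are -0.03 (hairpin I) and -0.04 (hairpin II), and boxes of promoters are the narrowest.

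The hairpins differed in the size of the change. The median log2 ratio of members to the summed controls was -0.03 under hairpin I (SD 1.19 over members) and -0.04 under hairpin II (SD 0.89). Of the 2716 called members, 2308 lay farther from control under hairpin I, which were 1395 called higher and 913 called lower. Compared with each other, hairpin I was at least 2-fold above hairpin II at 1106 of 14879 members with 20 or more tags in the pair (7.43%), against 6.71% of all such peaks. Hairpin II was at least 2-fold above hairpin I at 795 members (5.34%), against 4.09% of all peaks. Each hairpin had 1 library, so a difference between hairpins cannot be told apart from one between libraries.

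In the authors' deposited table, a total of 1534 members were called up (10.0%) and 2351 down (15.3%), against 8.48% and 11.8% of all peaks. Members called here shared 1334 of the 1534 and 1162 of the 2351, with 0 called in the opposite direction. The median log2 fold change of members in the authors' deposited table was -0.30, against -0.25 over all peaks, under their own scaling of the libraries. With that scaling the test used here called 1768 members higher and 3612 lower, so the share of members that fell depends on the scaling more than the share that rose.

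The distance from the nearest TSS went with the share of members that fell. Within 10 kb, 11.4% of 2700 members were called higher and 5.56% lower. At 10 to 50 kb the shares were 9.54% and 7.03% of 7212. At 50 to 100 kb they were 9.85% and 9.45% of 3006. Beyond 100 kb they were 10.2% and 9.64% of 2427. The rule of a 2-fold gap gave 4.96%, 6.04%, 8.42% and 9.19% lower in the same order of distance. Median log2 fold changes were 0.07, -0.02, -0.09 and -0.14 from near to far, while median control levels were 5.49, 4.81, 5.05 and 4.07 CPM. The part of level in this order was not tested.

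**Figure D2:**
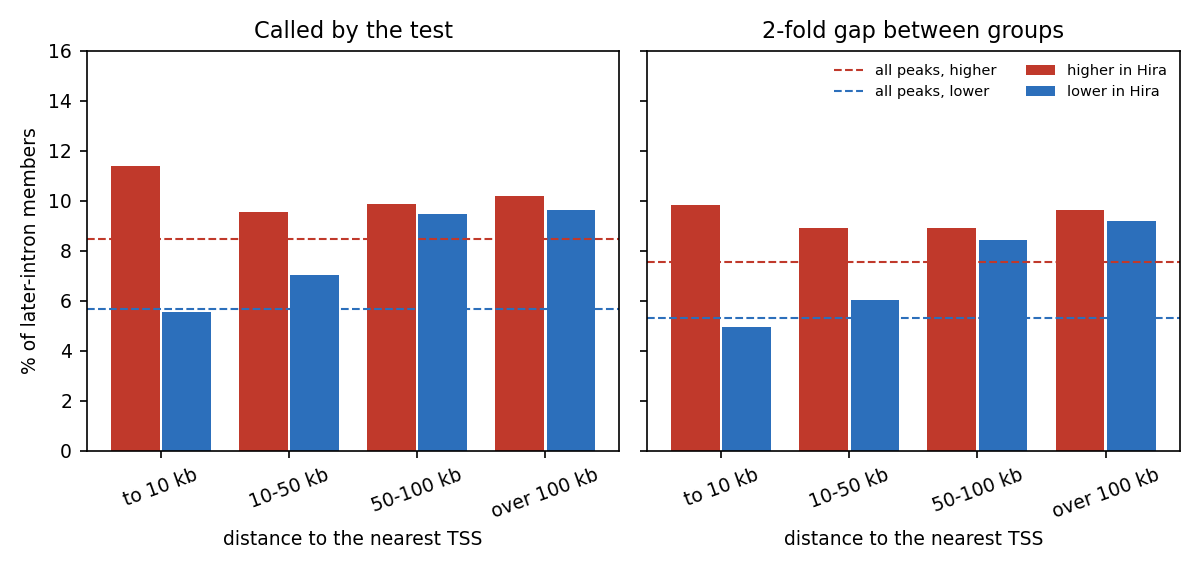
Share of later-intron members called higher or lower in Hira libraries (vertical axis, %) by distance to the nearest TSS, by the test (left) and by the rule of a 2-fold gap between groups (right); dashed lines are the shares over all peaks. The share called lower is 5.56% within 10 kb and 9.64% beyond 100 kb.

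The shares varied less with the number of the intron. In intron 2, 10.8% of 3797 members were called higher and 7.61% lower, and beyond intron 10 the shares were 9.43% and 7.34% of 3351. In introns 3 to 5 they were 10.3% and 8.19%, and in introns 6 to 10 they were 9.42% and 7.23%. Members in the last intron of their gene had 9.55% higher and 6.04% lower of 1738, against 10.1% and 7.86% of 13607 elsewhere. The median last-intron member had 5.50 CPM in Hira libraries and 4.99 CPM in control.

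Width and level sorted the members further. The widest members, over 916 bp, had 11% higher and 3.43% lower of 1689, and the narrowest, up to 323 bp, had 8.60% higher and 10.1% lower of 3419. By the mean level of Hira and control libraries, in quintiles of all peaks, the shares called higher were 11.5%, 10.9%, 9.81%, 9.41% and 6.46% from low to high. The shares called lower were 12.5%, 5.37%, 6.23%, 7.58% and 5.44%. Wide members had more tags, with a median of 20.3 CPM in Hira libraries and 19.5 CPM in control, so width and level move together here.

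Shares varied between chromosomes and were lowest for gains on the X. On chromosome 17, 13.5% of 702 members were called higher, and on chromosome 8, 13.4% of 794. The lowest share among autosomes was 7.94% of 756 on chromosome 9. Of 155 members on chromosome X, 3 were called higher and 12 lower, and their median log2 ratio was -0.37 under hairpin I and -0.14 under hairpin II. The 1207 peaks of all kinds on chromosome X had medians of -0.13 and -0.07 under hairpins I and II, with 3.31% called higher and 6.46% lower.

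Of the 15346 members 15327 matched a RefSeq gene by the transcript in the annotation, in 6186 host genes, of which 3300 held 1 member. Members in the same gene share their locus and are not replicates. For 6106 members (39.8%) the nearest TSS was that of another gene. Among 789 genes with at least 5 tested members, 190 had members called in both directions, 218 had only higher calls, 151 had only lower calls and 230 had none. Over all members 10.0% were called higher and 7.66% lower. How many such genes those shares alone would give was not worked out.

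The gene with the most members called higher was Gm15270, a long non-coding RNA gene that spans chr10:24331688-24595803 and overlaps the start of Ccn2 (chr10:24595442-24598683). Ccn2 encodes connective tissue growth factor, a matricellular protein and a textbook target of TGF-beta and of YAP with TEAD. Gm15270 held 28 members, of which 12 were called higher and 1 lower, beside 10.0% and 7.66% of all members. Their median log2 fold change was 0.69. The member closest to Ccn2, 14.1 kb upstream at chr10:24580994-24581693, had 29.0 and 14.4 CPM under hairpins I and II, against 2.97 and 2.76 CPM in the luciferase and scramble libraries (log2 fold change 2.98 ± 0.45 (SE), adjusted p = 0.0248). Both Hira libraries lay well above both controls. The member that falls in this stretch lay 23.1 kb upstream, at chr10:24571927-24572812, with 24.1 and 29.9 CPM under the Hira hairpins, against 49.6 and 53.4 CPM in controls (-0.94 ± 0.20, adjusted p = 0.0264). It was the more accessible of these neighbours in control, and the groups did not overlap there either.

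Farther along the same gene, the member at chr10:24478720-24479503 (116 kb upstream of Ccn2) had 11.8 and 9.01 CPM under the Hira hairpins, against 1.01 and 1.41 CPM in controls (3.15 ± 0.44, adjusted p = 0.0248). The member at chr10:24366977-24367721 had 32.6 and 16.8 CPM in Hira libraries, against 3.21 and 2.92 CPM in controls (3.05 ± 0.43, adjusted p = 0.0248). It lies nearest to the TSS of Moxd1, a monooxygenase gene at the far side. The Gm15270 gains 207, 203 and 198 kb upstream of Ccn2 also lie nearest to that TSS. The most accessible member of the gene in control, at chr10:24458312-24459301, had 49.0 and 61.9 CPM in Hira libraries and 60.0 and 61.5 CPM in controls (-0.15 ± 0.18, adjusted p = 0.672). At this peak the groups overlapped. The stretch printed for Gm36089 lies in the member at chr10:24552850-24553350, which had 18.9 and 10.3 CPM in Hira libraries, against 4.12 and 5.93 CPM in controls (1.64 ± 0.39, adjusted p = 0.0332). Of the 12 gains, those 203, 149 and 109 kb from Ccn2 lost the call without the scramble library. Ccn2 itself held 1 member, which was not called (log2 fold change 0.97).

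**Figure D3:**
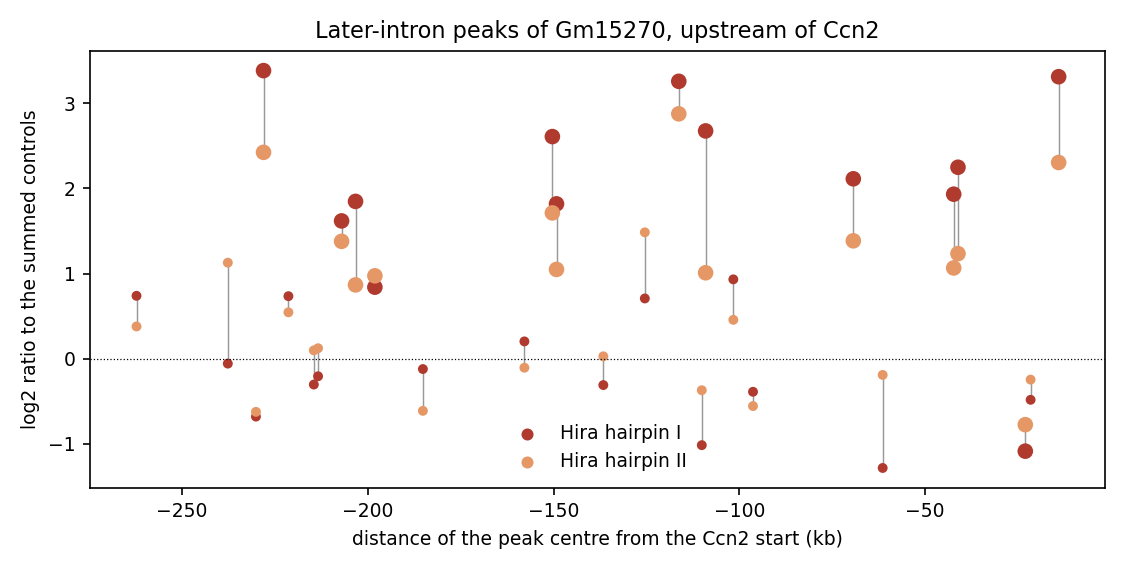
Log2 ratio to the summed controls of the 28 later-intron members of Gm15270 (vertical axis, log2) against distance of the peak centre from the start of Ccn2 (horizontal axis, kb), under hairpins I and II joined by a line; large points are members called by the test. The 12 called gains are spread over the gene, and the called loss lies at -23.1 kb.

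Other genes, picked from those with the most members called higher, held several gains. Their counts are set beside 10.0% higher and 7.66% lower of all members. Ltbp1 encodes a protein that binds latent TGF-beta and tethers it to the matrix, and 7 of its 14 members were called higher and 1 lower. In a run from intron 3 to intron 5 of its shorter transcript, 4 neighbouring members rose. The strongest of these in Hira libraries, at chr17:75244121-75244782, had 14.1 and 6.04 CPM under hairpins I and II, against 0.861 and 1.38 CPM in controls (3.3 ± 0.59, adjusted p = 0.0248). The next member along, at chr17:75263450-75263962, had 6.25 and 3.88 CPM in Hira libraries, against 11.8 and 10.7 CPM in controls (-1.09 ± 0.35, adjusted p = 0.0751). Without the scramble library 3 of the 7 gains of Ltbp1 and its loss were not called. Runx1, which encodes a transcription factor of blood and epithelial lineages, had 5 of 8 members higher and 0 lower. Its member in intron 3, at chr16:92620775-92621168, had 8.32 and 5.87 CPM in Hira libraries, against 1.39 and 1.85 CPM in controls (2.22 ± 0.44, adjusted p = 0.0253). Zmiz1 had 5 of 20 higher with 0 lower. Dlgap2, a postsynaptic scaffold gene, had 5 higher and 4 lower of 19.

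Other genes, several of them long, had the most members called lower. They were picked for those counts, which are set beside 7.66% lower and 10.0% higher of all members. Ptprd, a receptor-type tyrosine phosphatase and the gene with the most members (37), had 7 called lower and 2 higher, with a median of -0.61. Ptprm and Wwp2 had 6 members lower and 1 higher each, of 20 and 15. Auts2 had 5 lower and 2 higher of 22. Among the genes with many members, Macrod2 (27) had 2 higher and 4 lower, Pde4d (27) had 1 and 2, Camta1 (26) had 2 and 2, and Glis3 (26) had 2 and 1.

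The 11 largest gains, 1 a gene, above the median level of members and with a 2-fold gap, spanned log2 fold changes of 3.50 to 4.10. By that rule both Hira libraries lie at least 2-fold above both controls in each. In each of them hairpin I was the higher of the Hira libraries. The largest lay in the last intron of Best3, a bestrophin gene, at chr10:117023631-117024008, with 17.2 and 9.75 CPM under hairpins I and II, against 0.838 and 0.816 CPM in controls (4.10 ± 0.53, adjusted p = 0.0248). Ssh1, which encodes the cofilin phosphatase slingshot 1, had a member in intron 5 at chr5:113964991-113965387 with 15.5 and 5.36 CPM in Hira libraries, against 0.790 and 0.534 CPM in controls (4.05 ± 0.72, adjusted p = 0.0248). The others lay in Eif2ak3, Ttll5, Msi2, Hlcs, Wdr70, Pde3a, Mical2, Tead3 and Fam13c. Mical2, an oxidoreductase that disassembles actin, had the most even pair, with 19.1 and 13.1 CPM in Hira libraries, against 1.08 and 1.70 CPM in controls (3.6 ± 0.43, adjusted p = 0.0248) at chr7:112299026-112300014. Pde3a had the least even pair, with 19.1 and 2.74 CPM in Hira libraries, against 0.933 and 1.07 CPM in controls (3.65 ± 0.93, adjusted p = 0.0393) at chr6:141462641-141463225. The calls of Pde3a and Eif2ak3 were lost without the scramble library.

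Tead3 had the highest level in Hira libraries among these 11 gains. It encodes a TEAD factor, the DNA-binding partner of YAP. Its member in intron 2, at chr17:28340405-28341387, had 49.7 and 18.6 CPM under hairpins I and II, against 3.02 and 3.26 CPM in controls (3.52 ± 0.56, adjusted p = 0.0248). The 2-fold gap between its groups was set by the rule that picked these gains. In Tead1, of the same family, the member in intron 11 at chr7:112876995-112877651 had 3.50 and 6.27 CPM in Hira libraries, against 13.8 and 16.3 CPM in controls (-1.69 ± 0.36, adjusted p = 0.0274).

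The 12 largest losses, 1 a gene, above the same median level and with a 2-fold gap, spanned log2 fold changes of -2.91 to -2.37. The largest of these lay in intron 3 of Bace2, at chr16:97409716-97410249, with 2.24 and 5.76 CPM in Hira libraries, against 27.0 and 26.9 CPM in controls (-2.91 ± 0.39, adjusted p = 0.0248). Bace2 encodes a protease that cuts the melanosome protein PMEL in pigment cells. Mapt, the gene of the microtubule protein tau, had a member in intron 4 at chr11:104292448-104292788 with 1.22 and 2.17 CPM in Hira libraries, against 11.7 and 10.6 CPM in controls (-2.82 ± 0.44, adjusted p = 0.0248). Skap2, an adaptor protein of Src-family signalling, had 3.02 and 4.11 CPM in Hira libraries, against 20.1 and 19.3 CPM in controls (-2.52 ± 0.34, adjusted p = 0.0248) at chr6:51933147-51933589. In these members the controls were almost equal to each other, while a gap of at least 2-fold below them was set by the rule. Lars2 was the only member of the 12 in which hairpin II was the lower library, with 2.58 and 2.28 CPM under hairpins I and II, against 13.3 and 14.2 CPM in controls (-2.47 ± 0.37, adjusted p = 0.0248). The others lay in Zfp148, Gpc6, Proser2, Ddo, Ccs, Tmem163, Rims1 and Ptprk.

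**Figure D4:**
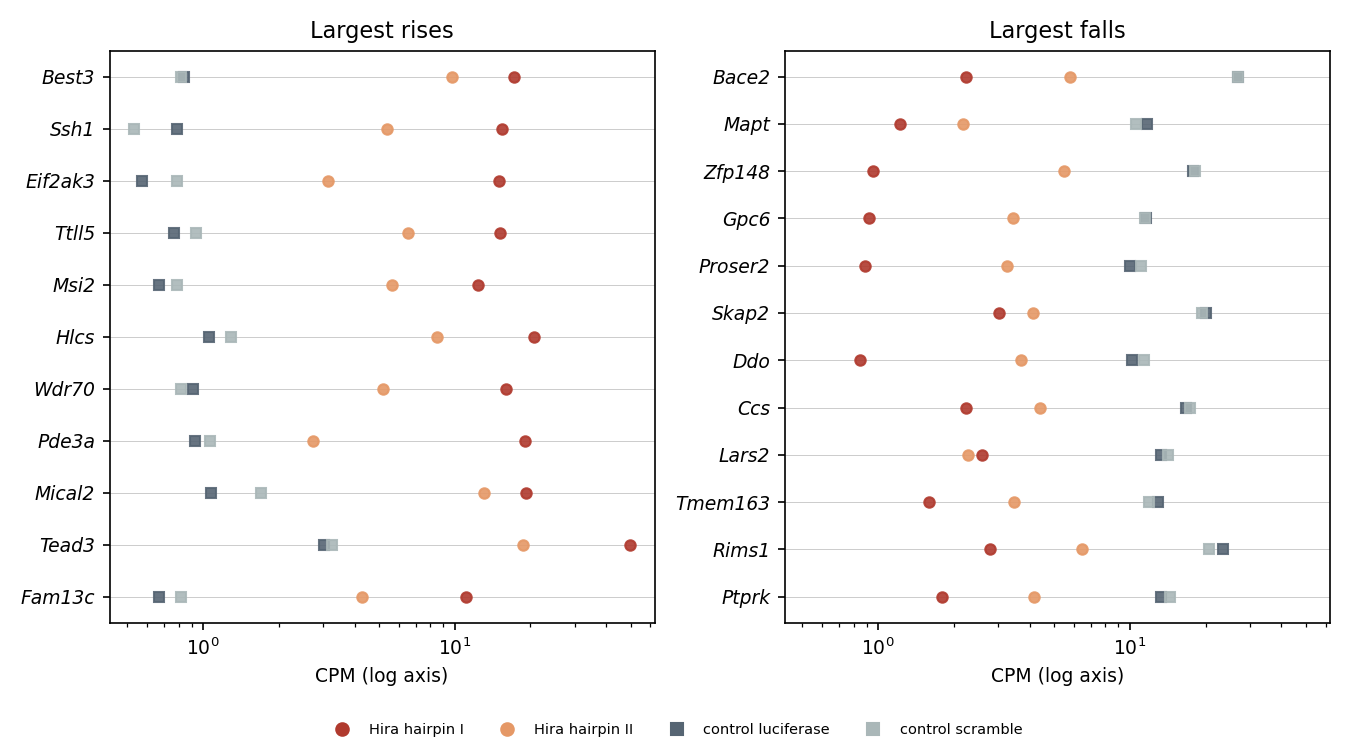
Accessibility per library (horizontal log axis, CPM) of the 11 largest gains (left) and the 12 largest losses (right) among called later-intron members with a 2-fold gap and above the median level of members, 1 a gene, named by the gene that holds the intron; circles are Hira libraries and squares are controls. The Bace2 member has 2.24 and 5.76 CPM in Hira libraries and 27.0 and 26.9 CPM in controls.

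The members most accessible in control did not pass the test. The 8 strongest, 1 a gene, lay in Foxk1, Akap7, Cd9, Clec11a, Trio, Rasa3, Uroc1 and Arpc1a, with log2 fold changes of -0.40 to 0.09. Foxk1, a forkhead factor, had 141 and 178 CPM in Hira libraries, against 180 and 181 CPM in controls (-0.18 ± 0.14, adjusted p = 0.476) at chr5:142439858-142441502. Arpc1a, a subunit of the Arp2/3 actin nucleator, had 68.8 and 120 CPM in Hira libraries, against 121 and 126 CPM in controls (-0.40 ± 0.26, adjusted p = 0.363). At Arpc1a the low value was that of hairpin I, and hairpin II lay close to the luciferase library.

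In the genes that make pigment, 31 members lay in 15 genes, of which 2 were called higher (6.45%) and 6 lower (19.4%), beside 10.0% and 7.66% of all members, with a median log2 fold change of -0.19. Tyrp1, which encodes a melanosomal enzyme of melanin synthesis, had a member in intron 3 at chr4:80839590-80840129 with 1.53 and 2.79 CPM in Hira libraries, against 7.71 and 8.10 CPM in controls (-2.00 ± 0.43, adjusted p = 0.0276). Trpm1, a melanocyte channel gene that also holds Mir211, had 15.3 and 16.4 CPM in Hira libraries, against 32.9 and 32.4 CPM in controls (-1.05 ± 0.22, adjusted p = 0.0262) at chr7:64219525-64220215. Gpr143, the ocular albinism receptor of melanosomes on chromosome X, had 0.374 and 0.399 CPM in Hira libraries, against 2.49 and 2.07 CPM in controls (-2.42 ± 0.42, adjusted p = 0.0248). These 3 fell in both Hira libraries, where the Gpr143 member had only 5.5 and 3.5 tags under hairpins I and II. Tpcn2, a melanosomal ion channel with 10 members, had 1 higher and 2 lower, and the one higher, at chr7:145221963-145222669, had 52.2 and 42.7 CPM in Hira libraries, against 23.4 and 20.2 CPM in controls (1.12 ± 0.20, adjusted p = 0.0248). Oca2, a melanosomal chloride channel gene, had the other gain (2.2 ± 0.60, adjusted p = 0.0483), which was lost without the scramble library. Losses on the list numbered 0 with DESeq2, 2 with cyclic loess offsets and 1 with at least 30 tags in every sample. They numbered 5 with limma-voom and 9 with the authors' scaling. The list had 1 higher and 4 lower without the scramble library, 0 and 0 without luciferase, 8 and 12 with hairpin I left out, and 6 and 13 with hairpin II left out.

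Genes that specify melanoblasts moved both ways. Of 51 members in 10 genes, 9 were called higher and 9 lower (17.6% each, beside 10.0% and 7.66% of all members), with a median of -0.04. Sox10, the neural crest transcription factor that drives the pigment lineage, had 2 members in intron 2 and both rose. The one at chr15:79160384-79160829 had 29.0 and 23.7 CPM in Hira libraries, against 7.66 and 7.44 CPM in controls (1.82 ± 0.26, adjusted p = 0.0248). The one at chr15:79162120-79163642 had 68.7 and 66.0 CPM in Hira libraries, against 38.8 and 38.2 CPM in controls (0.81 ± 0.16, adjusted p = 0.0249). Both gains were close in size under the hairpins. In the authors' deposited values the first had a log2 fold change of 1.54 (adjusted p = 4.7e-05 by their likelihood ratio test). The second had 0.56 (adjusted p = 0.178 by the same test). Pax3, which encodes a partner of SOX10 upstream of Mitf, had 1 member, in intron 4 at chr1:78163595-78164134, with 4.35 and 6.39 CPM in Hira libraries, against 13.7 and 13.5 CPM in controls (-1.40 ± 0.34, adjusted p = 0.0348). It fell, and the call was lost without the scramble library. Kit, the receptor for SCF, had 1 member, in its last intron, with 13.1 and 16.3 CPM in Hira libraries and 12.2 and 13.7 CPM in controls (0.17 ± 0.27, adjusted p = 0.755).

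Mitf, the master regulator of melanocytes, held 8 members, of which 1 rose and 2 fell. The gain, in intron 2 at chr6:97952870-97953195, had 10.6 and 2.79 CPM under hairpins I and II, against 0.790 and 1.04 CPM in controls (3.04 ± 0.74, adjusted p = 0.0347). A loss in the same intron, at chr6:97964612-97965334, had 3.64 and 7.18 CPM in Hira libraries, against 14.2 and 14.8 CPM in controls (-1.51 ± 0.37, adjusted p = 0.0367). The other loss, at chr6:97979446-97979621, had 2.07 and 3.65 CPM in Hira libraries, against 7.75 and 8.35 CPM in controls (-1.59 ± 0.41, adjusted p = 0.0417). All 3 calls were lost without the scramble library, although the groups did not overlap at any of them. The strongest Mitf member, at chr6:97981275-97982176, had 43.5 and 88.5 CPM in Hira libraries and 105 and 108 CPM in controls (-0.73 ± 0.31, adjusted p = 0.166). In intron 3, at chr6:97993191-97994486, the values were 19.2 and 17.4 CPM in Hira libraries and 10.4 and 9.20 CPM in controls (0.90 ± 0.26, adjusted p = 0.0535). Among the remaining genes of the list, Nfib, a nuclear factor I gene of melanocyte stem cells, had 3 of 8 higher and 1 lower, and Nfia had 3 higher and 2 lower of 21. Zeb2 had a loss in intron 4 at chr2:45017450-45017834, with 0.747 and 2.51 CPM in Hira libraries, against 7.59 and 8.07 CPM in controls (-2.46 ± 0.45, adjusted p = 0.0248). The list had 5 higher and 1 lower without the scramble library, 0 and 0 without luciferase, 20 and 19 with hairpin I left out, and 21 and 21 with hairpin II left out.

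The list of extracellular matrix genes had the highest share of gains among the lists with 30 or more members. Of 130 members in 38 genes, 34 were called higher (26.2%) and 8 lower (6.15%), beside 10.0% and 7.66% of all members, with a median log2 fold change of 0.32, against -0.03 for all members. The gains were unevenly spread over the genes, and 21 of the 38 had none. Col4a1 and Col4a2, neighbouring genes of type IV collagen chains, had 3 of 7 and 4 of 7 higher, Col18a1 4 of 10, Lamb1 3 of 4, and Lama5 2 of 3, with 0 lower in each. The Col18a1 member in intron 2, at chr10:77097430-77098295, had 32.5 and 28.9 CPM in Hira libraries, against 5.84 and 7.16 CPM in controls (2.27 ± 0.25, adjusted p = 0.0248). The Col4a1 member in intron 2, at chr8:11258526-11258913, had 18.8 and 14.8 CPM in Hira libraries, against 3.28 and 4.49 CPM in controls (2.17 ± 0.32, adjusted p = 0.0248). In both, each Hira library lay at least 2-fold above each control. Fbn1, the gene of the microfibril protein fibrillin 1, had 4 of 6 higher. Some other listed basement membrane genes had 0 called in either direction. Their medians were -0.30 (Lama1), -0.29 (Lama3), 0.47 (Lama4), -0.62 (Lamc1), -0.86 (Nid2) and 0.37 (Hspg2). Losses in the list were grouped in Adamts12, a metalloproteinase gene, with 3 of 6 lower and 0 higher. The list was chosen with earlier results of these data known and does not hold every matrix gene. Not on it were Lama2 (3 higher and 4 lower of 16), Col14a1 (1 and 0 of 17) and Adamtsl3 (4 and 0 of 11). The list had 19 higher and 5 lower without the scramble library, 0 and 0 without luciferase, 58 and 26 with hairpin I left out, and 60 and 35 with hairpin II left out. Members were assigned to the gene that holds the intron. Assigned by the nearest TSS instead, 41 of 127 were higher and 4 lower. Of the fibroblast markers, 2 had a TSS peak, Pdgfra with 56.2 CPM in Hira libraries and 50.9 CPM in control, and Dcn with 5.35 CPM in Hira libraries and 3.35 CPM in control. The part of such cells in the gains was not tested.

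Among TGF-beta and BMP genes most of the gains were those of Ltbp1. Of 66 members in 20 genes, 12 were called higher (18.2%) and 2 lower (3.03%), beside 10.0% and 7.66% of all members, with a median of 0.33. Ltbp1 held 7 of the 12 and 1 of the 2. Without it 5 of 52 were higher (9.62%), close to the share of all members, and 1 lower (1.92%). Ltbp3, a second latent TGF-beta binding protein, had both of its members higher, and that in intron 2, at chr19:5743236-5743950, had 34.5 and 34.0 CPM in Hira libraries, against 15.5 and 14.3 CPM in controls (1.19 ± 0.21, adjusted p = 0.0248). Tgfbr3, the co-receptor betaglycan, had 1 higher and 1 lower of 7, and the loss in intron 2, at chr5:107251617-107252425, had 5.95 and 9.41 CPM in Hira libraries, against 27.3 and 27.3 CPM in controls (-1.90 ± 0.29, adjusted p = 0.0248). The receptors Tgfbr1 and Tgfbr2 had 1 member each and neither passed. Counts were 5 higher and 1 lower without the scramble library, 0 and 0 without luciferase, 26 and 8 with hairpin I left out, and 33 and 15 with hairpin II left out.

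**Figure D5:**
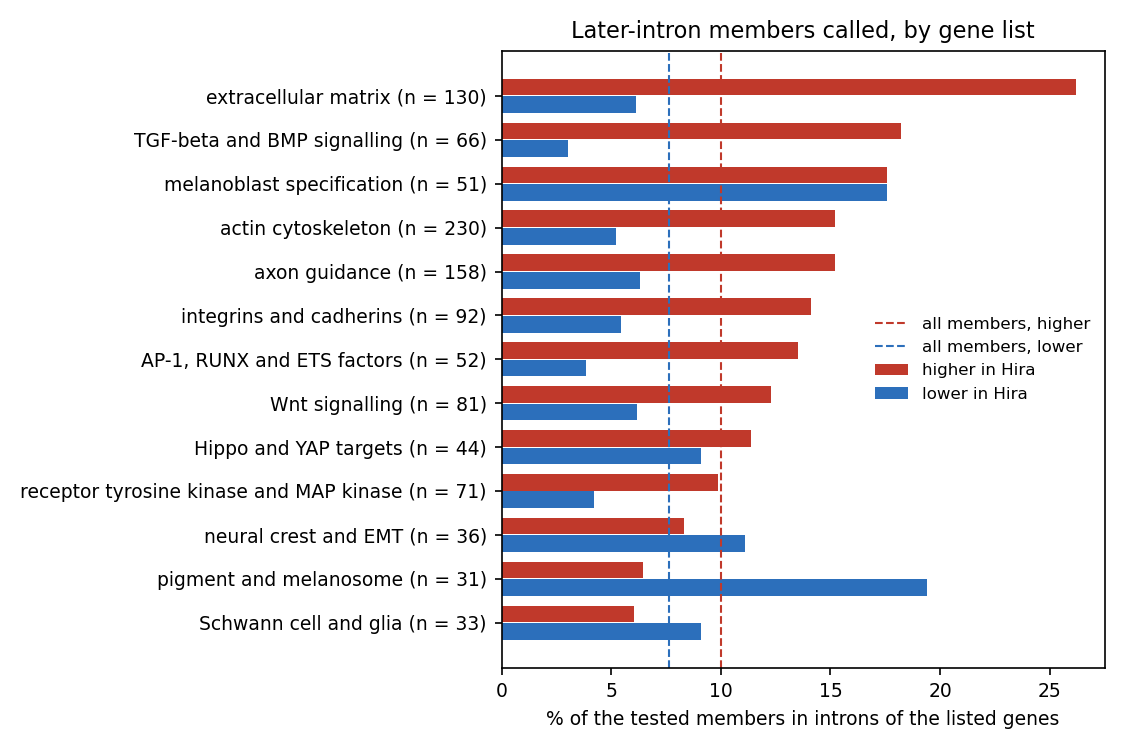
Share of later-intron members called higher or lower in Hira libraries (horizontal axis, %) among members in introns of listed genes, for the 13 lists with 30 or more members; n is the number tested and dashed lines are the shares over all members. Extracellular matrix has 26.2% higher, and pigment and melanosome has 19.4% lower.

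Genes of the cytoskeleton, of cell contact and of axon guidance are set beside the 10.0% higher and 7.66% lower of all members, which also had more gains than losses. Of 230 tested members in actin cytoskeleton genes, 35 were called higher (15.2%) and 12 lower (5.22%), with a median of -0.05. Daam2, a formin that nucleates actin, had a member in intron 17 at chr17:49472674-49473139 with 24.1 and 24.5 CPM in Hira libraries, against 6.27 and 7.47 CPM in controls (1.83 ± 0.25, adjusted p = 0.0248). Cald1, the gene of caldesmon, had one in intron 2 at chr6:34669310-34669584 with 0.578 and 0.114 CPM in Hira libraries, against 4.00 and 3.55 CPM in controls (-3.29 ± 0.53, adjusted p = 0.0248). The Hira libraries were nearly closed there, which is the reverse of Daam2. Of 92 members in integrin and cadherin genes, 13 were called higher (14.1%) and 5 lower (5.43%). Itgb5, an integrin beta chain, had 65.9 and 51.8 CPM in Hira libraries, against 15.7 and 15.6 CPM in controls (1.92 ± 0.21, adjusted p = 0.0248) at chr16:33916491-33917754. Each Hira library there lay more than 3-fold above each control.

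Of 158 members in axon guidance genes, whose products also steer migrating neural crest cells, 24 were called higher (15.2%) and 10 lower (6.33%), beside the same 10.0% and 7.66%, with a median of -0.01. Ntn4, a netrin of basement membranes, had a member at chr10:93711187-93711544 with 8.12 and 6.33 CPM in Hira libraries, against 0.861 and 0.408 CPM in controls (3.50 ± 0.50, adjusted p = 0.0248). Nrp1, a co-receptor for semaphorins and VEGF, had one in intron 2 at chr8:128387048-128387617 with 1.90 and 2.91 CPM in Hira libraries, against 11.1 and 10.1 CPM in controls (-2.21 ± 0.40, adjusted p = 0.0248). Robo2, a receptor for Slit ligands, had one in intron 2 with 0.306 and 0 CPM under hairpins I and II, against 2.06 and 2.45 CPM in controls, and was called lower. Without the scramble library the actin list had 19 higher and 6 lower, integrins and cadherins 7 and 2, and axon guidance 13 and 7. Without hairpin I they had 59 and 51, 24 and 26, and 45 and 45, and without hairpin II 75 and 81, 35 and 31, and 56 and 57.

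The signalling lists gave smaller numbers, which are read beside the 10.0% higher and 7.66% lower of all members. Of 71 members in receptor tyrosine kinase and MAP kinase genes, 7 were higher (9.86%, close to all members) and 3 lower (4.23%), with a median of 0.13. Flt1, a VEGF receptor, had a member in intron 17 at chr5:147596494-147596926 with 21.8 and 12.9 CPM in Hira libraries, against 2.46 and 2.23 CPM in controls (2.93 ± 0.41, adjusted p = 0.0248). Fgfr2 had a loss in intron 14 at chr7:130168096-130168738, with 2.45 and 5.76 CPM in Hira libraries, against 16.8 and 16.1 CPM in controls (-2.15 ± 0.40, adjusted p = 0.0248). Of 81 members in Wnt genes, 10 were higher (12.3%) and 5 lower (6.17%), with a median of 0.00. Ror1, a Wnt5a receptor, had 1 higher and 1 lower of 9, and Tcf7l1, a repressor of Wnt targets, had 1 higher and 2 lower of 17. The strongest loss of Tcf7l1 by p, at chr6:72721760-72722563, had 3.47 and 9.92 CPM in Hira libraries, against 28.7 and 28.4 CPM in controls (-2.24 ± 0.41, adjusted p = 0.0248). Of 44 members in Hippo and YAP target genes 5 were higher (11.4%) and 4 lower (9.09%), and of 52 in AP-1, RUNX and ETS factor genes 7 were higher (13.5%) and 2 lower (3.85%). In that last list 5 of the 7 gains were those of Runx1, and without it 2 of 44 were higher and 2 lower (4.55% each). Elk3, an ETS repressor, had a loss at chr10:93271120-93271557, with 3.64 and 5.47 CPM in Hira libraries, against 15.9 and 14.2 CPM in controls (-1.79 ± 0.34, adjusted p = 0.0249). Without the scramble library these 4 lists had 4 higher and 1 lower (receptor and MAP kinases), 4 and 3 (Wnt), 3 and 4 (Hippo) and 2 and 2 (AP-1, RUNX and ETS), and without luciferase 0 in each. With hairpin I left out they had 17 and 17, 19 and 22, 13 and 10, and 15 and 8, and with hairpin II left out 31 and 24, 29 and 31, 17 and 18, and 18 and 17.

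Neural crest and mesenchymal genes, 36 members in 4 genes, had 3 higher (8.33%) and 4 lower (11.1%), beside 10.0% and 7.66% of all members, with a median of -0.37. Of the SOX factors that modulate SOX10, Sox5 had 2 higher and 1 lower of 12, and Sox6 had 1 higher and 2 lower of 20. The Sox5 member in intron 6, at chr6:144021627-144022040, had 4.55 and 3.93 CPM in Hira libraries, against 0.933 and 0.659 CPM in controls (2.39 ± 0.46, adjusted p = 0.0249). Genes of Schwann cells and glia, 33 members, had 2 higher (6.06%) and 3 lower (9.09%), with a median of -0.33. One gain and one loss of Sox6 and the gain of Tek were lost without the scramble library. That library left out, neural crest genes had 1 higher and 0 lower and Schwann genes 0 and 0. With hairpin I left out they had 6 and 11, and 6 and 10, and with hairpin II left out 9 and 22, and 6 and 19. Fibroblast genes, 10 members, had 1 higher and 2 lower, and 1 and 0 without the scramble library. Endothelial markers had 1 of 6 higher, in Tek, and immune (2 members), keratinocyte (4) and p53 target (2) genes had 0 called in either direction. Genes of the HIRA complex and of H3.3 chaperones held 5 members, with 1 higher, in Cabin1, a subunit that binds HIRA. It had 49.2 and 35.5 CPM in Hira libraries, against 23.0 and 22.1 CPM in controls (0.93 ± 0.23, adjusted p = 0.0366) at chr10:75704024-75704998, and the call was lost without the scramble library.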

How the data were processed

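A commercial ATAC-seq kit was used on melb-a cells, per the labels' protocols. Tools listed in the submitters' processing notes are MACS2 2.2.9.1, edgeR 3.38.4, cutadapt 2.3, Picard and Bowtie2, with mm10 as the build and no role stated. Filtering of duplicates, transposase shifting and the merging of peaks are not given in the sources used here. The authors deposited a single table with an annotation and, per library, an estimated count of tags in each peak, in steps of 0.5. The values were rounded before count tests. Per the file headers it also holds the authors' log2 fold change and mean log2 CPM, a likelihood ratio score, and their p-value with its adjustment. Hira columns were matched to hairpins by numeral, although the table names them as knockouts. All columns of tags were matched.

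The 2 controls were summed to 1 sample, so the spread of the main test came from the 2 Hira libraries, 1 per hairpin. Each peak was tested with edgeR 4.0.16 (R 4.3.3; TMM factors, filterByExpr, the newer quasi-likelihood estimate), two-sided, with Benjamini-Hochberg adjustment over all peaks. Errors of log2 fold changes are SEs, the absolute value over the square root of F. CPM use TMM-scaled tags in peaks. Log2 ratios per hairpin used a prior of 2 tags. The fit was also run on simulated data with 200 peaks changed, drawn at the same dispersion for all samples. That run does not cover the difference between the hairpins, and its outcome is not given here. Host genes came from the RefSeq transcript named in the annotation. Gene lists (19 lists, 485 genes) are described by counts. The members, lists and tests were chosen with earlier results of these data known. Members named are the 12 largest called changes a direction above median level with a 2-fold gap, up to 2 called members a direction in each list, the 8 strongest in control, the genes with the most members or calls, and key pigment genes. A few of these are left out of the text. Alternatives were other estimates of spread, DESeq2 1.42.0, limma-voom (limma 3.58.1), other scalings, filters and thresholds, and each library left out. Quintiles of mean level, start windows, list counts without a library and a tag minimum were chosen after seeing the data. The motif search in peaks was not run. Figures used matplotlib 3.10.9.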

Additional observations from a re-analysis of the deposited data

How the results depend on the processing

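Counts of members called higher and lower were 1541 and 1175. They were 2807 and 2782 with controls kept as 2 samples, 0 and 0 with the older quasi-likelihood estimate (2170 and 1950 at an unadjusted p under 0.05), 562 and 70 with DESeq2, 907 and 738 with limma-voom, and 737 and 274 with at least 30 tags in every sample. The authors' scaling gave 1768 and 3612 and cyclic loess offsets 1092 and 424, so the balance of gains and losses depends on the scaling. At an adjusted p under 0.01 edgeR called 0 and 0. Leaving out a library gave 0 to 4898 higher and 0 to 5239 lower. Members with a 2-fold gap numbered 2255 higher and 2270 lower at 1.5-fold, and 627 and 331 at 3-fold, against 1409 and 1046. Leaving out a library gave 1527 to 2356 and 1220 to 2546. The median log2 ratios under hairpins I and II were -0.037 and -0.076 with total tags and -0.43 and -0.17 with the authors' scaling, and -0.011 under hairpin II with cyclic loess. The likelihood ratio test, total tags, no filter and autosomes alone kept counts within 1.5 times. Of 111 named calls, 72 were kept by DESeq2, 83 by limma-voom, 77 by cyclic loess and 106 by the authors' scaling, with 0 reversed. The Rasa3 member, at 0.00, was -0.21 with hairpin II left out and 0.20 with hairpin I left out. All list counts were 0 without the luciferase library. The cause of these shifts was not tested. The labels pair no libraries. With the numbers of the table's columns as a replicate block, controls kept as 2 samples and chosen after seeing the data, 2869 and 2894 were called, near the 2807 and 2782 without the block. Libraries of the same number did not deviate together (correlation -0.0070 over members). Counts of peaks with few tags, most under hairpin II, are limited by depth.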
